A study of Mus musculus with 8 samples.

Results

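Liver RNA of 4 male mice was compared on 2 two-colour Agilent arrays, numbers 3 and 4 of the 4 arrays in the series. They carried 4 of the 8 livers, and each held 1 homozygous Pus1 mutant and 1 wild-type male. The arrays were chosen by sample and not by any measured value. The animals were 14 to 16 weeks old, untreated, and on a C57BL/6J strain after 5 generations of backcrossing, which mutants and wild types share. What the mutant allele is, and whether the mice of an array were littermates, are not stated in the sources used here. On array 3 the mutant was labelled with Cy5 and the wild type with Cy3. On array 4 the dyes were swapped. The animals are named here by genotype and array, as mutant 3, wild type 3, mutant 4 and wild type 4. Each number stands for a separate mouse per the labels.

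Pus1 encodes pseudouridine synthase 1, an enzyme that turns uridine into pseudouridine, chiefly in tRNAs, in nucleus, cytosol and mitochondria. Loss of the human enzyme causes a disease of muscle and red cell precursors. The liver is made mostly of hepatocytes, with resident macrophages called Kupffer cells, sinusoidal endothelial cells and stellate cells between them, and in the adult few of its cells divide. The comparison asks which liver transcripts differ between genotypes in males.

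A gene was kept where the scanner software marked its probe as well above background for 2 or more of the 4 males. This left 16634 genes or unnamed transcripts, 11191 of them with a symbol. Between 36.8% and 37.9% of spots were well above background in each of the 4 samples, and between 0 and 27 spots were saturated. Of 22 genes listed as marks of hepatocyte identity 21 were kept, against 4 of 22 genes listed for pancreas, muscle and fat. A level below is the log2 brightness of a channel after normalization, in arbitrary units, and is compared only within a gene. A ratio is the log2 of mutant over wild type within an array. With 2 arrays, precision is limited by their number throughout.

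The targeted gene was low in both mutants. Pus1, measured by its only probe (transcript NM_001025561), had a level of 6.64 in mutant 3, 6.76 in mutant 4, 8.46 in wild type 3 and 8.83 in wild type 4. The mutants lay below the wild types with no overlap, and the probe cleared background in both wild types and in neither mutant. The ratios were −1.82 on array 3 and −2.07 on array 4, with a mean of −1.95 ± 0.17 (SE, n = 2 arrays). Since the mutants were not well above background, Pus1 was at least 3.85-fold lower on the mean of both arrays. This bound is set against the lowest signal well above background and equals here the measured fold. The low level of Pus1 in the libraries labelled mutant goes with the direction of both ratios given by the dye labels. The probe's place within Pus1 relative to the mutation is not stated in the sources used here.

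No gene passed an adjusted p of 0.05 in the limma fit of the 2 ratios, 0% of 16634. The lowest adjusted p was 0.153, held by Pus1 and by Kdm2b. With 2 mutants and 2 wild types taken as unpaired, an exact two-sided permutation test cannot go below p = 0.333. Keeping the pairs by array leaves fewer arrangements still. At an unadjusted p under 0.05 there were 358 genes, or 2.15%, of which 256 were higher and 102 lower in mutants. The genes below are therefore given by their values on each array, and "higher" and "lower" describe those values and not a test that was passed. Without the filter on dim probes 6 of 36948 genes passed, 4 higher and 2 lower. Pus1, Kdm2b (both adjusted p = 0.00261), Ccnb2 (0.0103), Birc5 (0.0225) and Kif20a (0.0373) were among them. The mean ratio of Pus1 was −1.95 with and without the filter, so its lower adjusted p does not come from a larger difference. With 1 residual degree of freedom the spread of a gene rests mostly on that of all genes, and dim genes enter it in this setting. With the local background subtracted Pus1 alone passed (adjusted p = 0.0461).

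The 2 arrays agreed in sign for fewer genes than they disagreed. Of the 16634 genes, 6876 (41.3%) had the same sign on both, 3435 higher (20.7%) and 3441 lower (20.7%) in mutants. The other 9758 genes (58.7%) had opposite signs. The ratios of both arrays had a Pearson correlation of −0.24 across genes, and genes are no independent replicates. The arrays have opposite dye orientations, so a gene brighter in Cy5 than in Cy3 for any reason other than genotype takes opposite signs here. With median centring in place of loess, which leaves the dye curve of each array in place, 12.6% of genes had the same sign. The levels of the 2 mutants and the 2 wild types did not overlap for 3490 genes, or 21%.

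A difference of at least 1.5-fold in the same direction on both arrays was seen for 44 genes higher (0.265%) and 7 genes lower (0.0421%) in mutants. In opposite directions there were 210 such genes (1.26%). Of the 44, 32 were well above background in all 4 samples and 5 in the mutants alone. The levels of the mutants and wild types did not overlap for 40 of the 44 and for all of the 7, against 21% of all genes. The genes were chosen by ratios of the same 4 samples, so these counts add no separate support. Near the limit, Foxm1 (1.32 on array 3 and 0.59 on array 4) lay inside it, and Setd4 (0.58 and 0.71) and Tpx2 (0.91 and 0.58) lay outside it. On the lower side Onecut1 (−0.90 and −0.70) lay inside and Camk2b (−0.57 and −0.80) outside. Taken alone, array 3 had 898 genes past the limit and array 4 had 610.

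**Figure D1:**
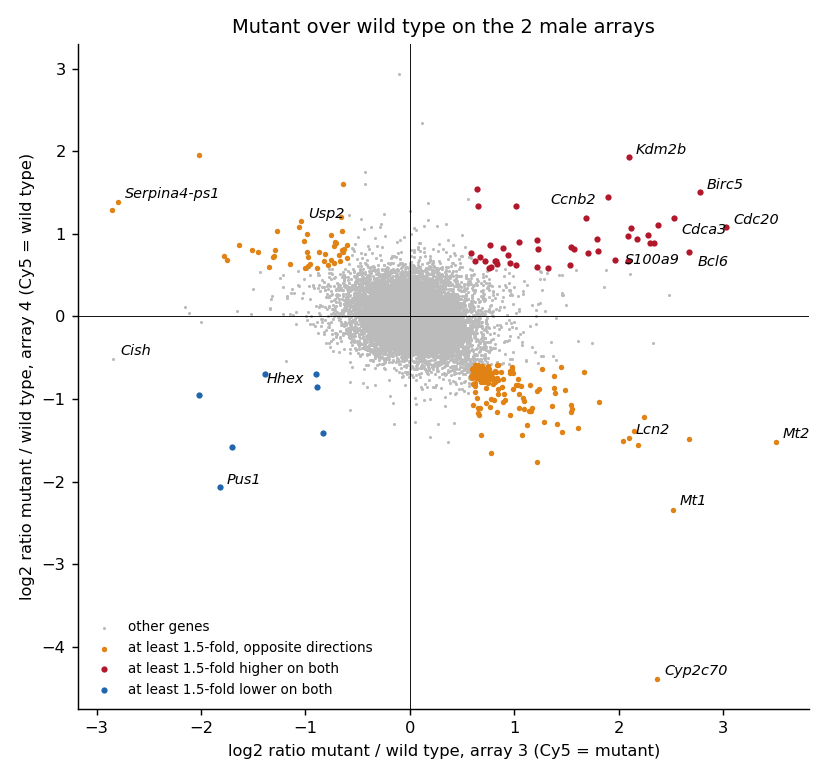
Each point is 1 of 16634 genes, with its log2 ratio of mutant over wild type on array 3 (horizontal axis) and on array 4 (vertical axis). The 44 genes at least 1.5-fold higher on both arrays are red, the 7 lower on both blue and the 210 in opposite directions orange; most orange points lie at the lower right, higher in mutant 3 and lower in mutant 4.

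Genes listed for mitosis and spindle made up 12 of the 44 genes at least 1.5-fold higher on both arrays. These were 12 of the 19 kept members of that list, against 44 of all 16634 genes (0.265%). Kif20a, among the 12, was kept through the mutants alone. Birc5 encodes survivin, a subunit of the complex that guides chromosome attachment and cytokinesis. Its level was 11.73 in mutant 3, 10.57 in mutant 4, 8.95 in wild type 3 and 9.07 in wild type 4. Both mutants lay above both wild types, with mutant 3 highest. The mean ratio was 2.14 ± 0.30 (SE), or 4.41-fold (adjusted p = 0.879 in limma). Other Birc5 probes, well above background in 2 samples, gave lower ratios of 1.29 and 0.28, and of 1.04 and 0.58.

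Ccnb2 is a B-type cyclin that acts with the kinase Cdk1 at the entry to mitosis. It had a level of 10.42 in mutant 3, 9.72 in mutant 4, 8.52 in wild type 3 and 8.27 in wild type 4, with no overlap and a mean ratio of 1.68 ± 0.18 (SE; adjusted p = 0.319). Cdca3, a trigger of mitotic entry, had levels of 10.47 and 9.40 in mutants 3 and 4 and of 7.94 and 8.20 in wild types 3 and 4. Again mutant 3 was the highest sample and the wild types lay close together. Cdc20, which activates the ubiquitin ligase that ends mitosis, had levels of 11.38 and 10.15 in mutants 3 and 4 and of 8.35 and 9.07 in the wild types. Its ratio was 3.03 on array 3 and 1.08 on array 4, a mean of 2.06 ± 0.42 (SE). Kif20a, a kinesin of cytokinesis, cleared background in both mutants and in neither wild type. It was measured 2.71-fold higher on the mean of both arrays.

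Mki67, the gene of the proliferation antigen Ki-67, had levels of 10.36 and 9.36 in mutants 3 and 4 and of 8.08 and 8.38 in the wild types. A further Mki67 probe gave ratios of 1.86 and 1.07, close to the 2.28 and 0.98 of the first. Stmn1, which destabilizes microtubules, had levels of 12.23 and 11.37 in mutants and of 10.05 and 10.43 in wild types. Ect2, an exchange factor for the furrow of dividing cells, had ratios of 1.79 and 0.94 and cleared background in 1 of 2 wild types. Lockd, a long non-coding RNA, had ratios of 2.12 and 1.07, and the tubulin gene Tubb6 had ratios of 1.22 and 0.93. Every gene named in this and the foregoing paragraphs on cell division was higher on array 3 than on array 4.

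Of 30 genes listed for mitosis and spindle 19 were kept, and 18 of these were higher on both arrays. That count partly reflects the filter, since Kif20a and Tpx2 were kept through the mutants alone and 11 listed genes were too dim. Of the 14 members well above background in all 4 samples 13 were higher on both arrays, against 20.5% of all 14689 such genes, and none was lower on both. Their median ratio was 1.71 on array 3 and 0.67 on array 4, against 0.02 and −0.02 for all genes well above background. The exception was Cdk1, the kinase that drives mitosis, with 0.08 on array 3 and −0.18 on array 4. The members' summed brightness was 18558 in mutant 3, 10314 in mutant 4, 5038 in wild type 3 and 5659 in wild type 4, so the mutants differed from each other by more than the wild types did. In bulk RNA more dividing cells and more RNA per dividing cell cannot be told apart.

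Genes of DNA replication and nucleotide supply were less uniform between arrays. Of 28 listed, 23 were kept, Mcm2 through the mutants alone. On both arrays 17 were higher and 1 was lower, against 20.7% each of all genes. Of the 22 members well above background in all 4 samples 16 were higher on both, against 20.5% of all such genes. The median ratio of the 23 was 0.71 on array 3 and 0.14 on array 4. Rrm2, a subunit of the enzyme that makes deoxyribonucleotides, had levels of 10.85 and 9.15 in mutants 3 and 4 and of 9.28 and 8.34 in wild types 3 and 4. Mutant 4 lay below wild type 3, so these levels overlap although the ratios were 1.57 and 0.81. Mcm6, a subunit of the replicative helicase, had ratios of 1.45 and 0.51, and the flap nuclease gene Fen1 0.58 and 0.43, each without overlap. Pole, the catalytic subunit of a replicative polymerase, had ratios of 0.97 and 0.27 and lies within 20 Mb of Pus1.

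The 250 bases before the transcription start of 4 of the mitotic genes are shown, with known promoter letters in capitals. They are from RefSeq on GRCm38.p6, written 5′ to 3′ on the strand of the gene. Capitals mark CCAAT or its reverse complement ATTGG, and TTTGAA, its reverse complement TTCAAA, or TTTAAA, letters of the cell cycle homology region. Birc5 lies at chr11:117848987-117849236 on the plus strand, Ccnb2 at chr9:70421555-70421804 on the minus strand, Cdca3 at chr6:124829926-124830175 on the plus strand and Cdc20 at chr4:118437344-118437593 on the minus strand.
Birc5: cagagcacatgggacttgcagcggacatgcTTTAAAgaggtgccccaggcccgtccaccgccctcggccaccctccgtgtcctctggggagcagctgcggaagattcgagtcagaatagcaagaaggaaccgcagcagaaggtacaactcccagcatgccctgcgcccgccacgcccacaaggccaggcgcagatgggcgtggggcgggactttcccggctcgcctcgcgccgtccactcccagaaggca
Ccnb2: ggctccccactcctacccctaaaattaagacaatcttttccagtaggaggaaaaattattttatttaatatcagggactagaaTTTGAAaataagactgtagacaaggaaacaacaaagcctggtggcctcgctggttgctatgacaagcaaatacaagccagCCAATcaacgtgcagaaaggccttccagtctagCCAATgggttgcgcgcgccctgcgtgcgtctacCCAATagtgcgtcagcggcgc
Cdca3: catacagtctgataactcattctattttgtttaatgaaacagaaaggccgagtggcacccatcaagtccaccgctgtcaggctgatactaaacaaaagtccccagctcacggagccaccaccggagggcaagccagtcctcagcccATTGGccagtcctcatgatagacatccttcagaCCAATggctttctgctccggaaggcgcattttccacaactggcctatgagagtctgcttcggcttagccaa
Cdc20: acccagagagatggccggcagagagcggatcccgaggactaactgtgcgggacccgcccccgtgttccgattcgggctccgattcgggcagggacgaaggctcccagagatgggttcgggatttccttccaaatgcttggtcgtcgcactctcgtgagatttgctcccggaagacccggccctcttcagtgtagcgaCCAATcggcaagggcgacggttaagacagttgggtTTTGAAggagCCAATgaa

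Ccnb2 holds CCAAT 3 times, Cdca3 and Cdc20 hold it or its reverse complement 2 times, and Birc5 holds none in this window. Of the 19 kept genes for mitosis and spindle 15 matched a promoter by symbol, and 14 of the 15 hold CCAAT on either strand in at least 1 window. Among all 27025 genes with a promoter, not only those kept in these livers, 37.5% do. For the cell cycle homology letters the count was 10 of 15 against 28.1%, and for both together 9 of 15 against 10.1%. CCAAT does not overlap the other letters. A match describes the letters and not a bound site.

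Markers of 2 kinds of myeloid cell were also higher. S100a8 and S100a9 together encode calprotectin, an abundant protein of neutrophils. S100a9 had a level of 11.98 in mutant 3, 11.57 in mutant 4, 9.69 in wild type 3 and 10.68 in wild type 4. S100a8 had levels of 10.31 and 9.33 in mutants 3 and 4 and of 7.97 and 8.44 in wild types 3 and 4. Wild type 3 was the lowest sample for both genes and the genotypes did not overlap. Mpo, the myeloperoxidase of neutrophil granules, was well above background in the mutants alone, as was Retnlg. On the mean of both arrays Mpo was measured 1.96-fold higher and Retnlg 1.57-fold. Of 13 listed neutrophil markers 7 were kept, Mpo and Retnlg through the mutants alone. Of the 5 well above background in all 4 samples 3 were higher on both arrays, against 20.5% of all such genes, and Csf3r, the receptor of the neutrophil growth factor, had ratios of 0.01 and −0.28. The summed brightness of the 7 did not separate the genotypes, with 49103 and 49366 in mutants 3 and 4 and 43731 and 57049 in wild types 3 and 4. On the female arrays 1 and 2 the S100a9 ratios were −0.19 and 3.51.

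Kupffer cell markers were higher in the mutant of each array. Of 20 listed, 17 were kept, 15 were higher and 1, the iron exporter gene Slc40a1, was lower on both arrays. Of all genes 20.7% were higher and 20.7% lower on both. The median ratios were 0.50 and 0.42. Of the 15 members well above background in all 4 samples 13 were higher on both, against 20.5% of all such genes. Marco, a scavenger receptor, had levels of 10.60 in mutant 3, 12.27 in mutant 4, 10.09 in wild type 3 and 11.28 in wild type 4. Both samples of array 4 thus lay above both samples of array 3, and the genotypes overlapped. Lyz1, a lysozyme, had levels of 10.35 and 10.98 in mutants 3 and 4 and of 9.85 and 10.25 in the wild types, without overlap. Vsig4, a complement receptor, had ratios of 0.44 on both arrays, and Timd4, a receptor for dying cells, 0.70 and 0.48. The summed brightness was 62218 in mutant 3, 88651 in mutant 4, 43221 in wild type 3 and 70684 in wild type 4, so mutant 3 lay below wild type 4. The part of cell makeup in any other result was not tested.

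**Figure D2:**
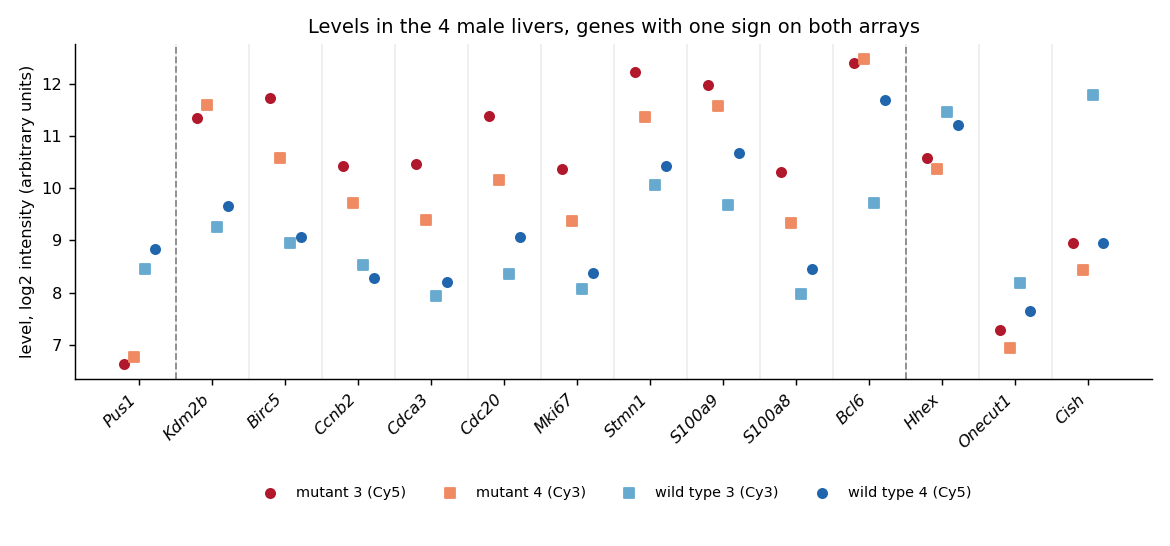
Levels of 14 genes in each of the 4 male livers, as log2 brightness in arbitrary units (vertical axis), with red marks for mutants, blue marks for wild types, circles for Cy5 and squares for Cy3. Dashed lines part Pus1, genes higher in both mutants and genes lower in both; for Cish, wild type 3 stands alone at 11.79 and the other 3 samples lie between 8.43 and 8.94.

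Outside cell division and myeloid cells, Kdm2b had alike ratios on both arrays. This gene encodes a histone demethylase that recruits a Polycomb complex to CpG islands. Its level was 11.35 in mutant 3, 11.59 in mutant 4, 9.25 in wild type 3 and 9.66 in wild type 4, without overlap. The ratios were 2.10 and 1.93, a mean of 2.01 ± 0.17 (SE) or 4.03-fold (adjusted p = 0.153). A further Kdm2b probe, well above background in 2 samples, gave 0.68 and 0.99. On female arrays 1 and 2 the first probe gave 0.64 and 1.14, and the further probe −0.03 and 0.54. Nat8f5, of a family of acetyltransferase genes, had levels of 11.20 and 10.02 in mutants 3 and 4 and of 10.18 and 8.68 in wild types 3 and 4, which overlap.

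Past 1.5-fold on both arrays, the 7 genes lower in mutants include Pus1, Hhex and Onecut1. Hhex encodes a homeobox factor of liver development. It had levels of 10.57 and 10.36 in mutants 3 and 4 and of 11.46 and 11.22 in wild types 3 and 4, with a mean ratio of −0.87 ± 0.16 (SE). Onecut1, a hepatocyte transcription factor, had levels of 7.28 and 6.94 in mutants and of 8.18 and 7.64 in wild types, and was well above background in 1 of 2 mutants. Neither Hhex nor Onecut1 overlapped between genotypes.

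The remaining genes named on the lower side did not reach 1.5-fold on both arrays. Camk2b, part of a kinase driven by calcium, had ratios of −0.57 and −0.80. The ATP-gated channel gene P2rx7, well above background in the wild types alone, was measured 1.47-fold lower on the mean of both arrays. Eif5, a factor of translation initiation, had −0.58 and −0.44 and Plin4, a lipid droplet coat protein, −0.44 and −0.63. Sec23b, a coat subunit of vesicles leaving the endoplasmic reticulum, had −0.68 and −0.44, and the calcium sensor gene Syt1 −0.42 and −0.59. These 6 genes had no overlap between genotypes, against 21% of all genes. They were picked by ratios of the same 4 samples, so this adds no separate support. Chac1, which degrades glutathione, had −0.45 and −0.81 with overlapping levels. The less studied Gm10804 (−1.19 and −0.54), 8030462N17Rik (−0.46 and −0.46) and AW549542 (−0.74 and −0.41) complete the set with Pigr, the polymeric immunoglobulin receptor, at −0.48 and −0.47. A further Pigr probe gave −0.46 and −0.42, but on female arrays 1 and 2 the probes differed, with −1.03 and −2.48 for the first and −0.55 and −1.51 for the other.

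In the growth hormone axis the ratios of Bcl6 and Cish were far from 0 on array 3, while the median over its 15 kept genes was 0.04 on array 3 and −0.12 on array 4. Growth hormone acts in liver through STAT5, which induces Cish and the Socs inhibitors, and represses the transcriptional repressor gene Bcl6. Bcl6 had levels of 12.39 in mutant 3, 12.47 in mutant 4, 9.72 in wild type 3 and 11.69 in wild type 4, with ratios of 2.68 and 0.78. Cish had levels of 8.94 and 8.43 in mutants 3 and 4, 11.79 in wild type 3 and 8.94 in wild type 4, with ratios of −2.85 and −0.51. Wild type 3 was the outlying sample in both genes, low for Bcl6 and high for Cish, and wild type 4 lay near the mutants for Cish. Socs2 had ratios of −0.38 and −0.23 and Socs3 −0.82 and −0.19, while Igf1, the main hormone under this control, had 0.06 and −0.23. A further Socs2 probe was 0.23 on array 4. Of the 15 genes 5 were higher and 6 lower on both arrays, against 20.7% each of all genes.

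Several metabolic lists are given by their counts, beside 20.7% of all genes higher and 20.7% lower on both arrays. Of 31 kept NRF2-linked antioxidant enzymes, genes of the cell's defence against oxidants, 15 (48.4%) were higher and 2 lower on both arrays, with medians of 0.11 and 0.31. The glutathione S-transferase genes Gstm3 (0.66 and 1.34) and Gstm2 (0.83 and 0.63) were the members past 1.5-fold on both. Gstm2 had levels of 13.96 and 13.21 in mutants 3 and 4 and of 13.13 and 12.57 in the wild types. These genes have near-identical relatives, so their probes may not read 1 gene alone. Of 24 kept genes of cholesterol synthesis and uptake 11 (45.8%) were higher and 2 lower on both arrays, with medians of 0.56 and 0.11. Lss, which closes the sterol rings, had ratios of 0.70 and 0.52, and the mevalonate pathway gene Pmvk 0.95 and 0.32. Of 11 kept tubulins 7 (63.6%) were higher and 0 lower on both, among them Tubb5 with 0.37 and 0.41. Of 36 kept genes of the urea cycle and amino acid catabolism 15 (41.7%) were higher and 3 lower on both, with the urea cycle genes Asl at 0.62 and 0.32 and Arg1 at 0.49 and 0.31.

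Lists linked to the known roles of Pus1 in tRNA and mitochondria had medians near 0. Of the 9 kept pseudouridine synthases other than Pus1, 8 had opposite signs and Pusl1 was lower on both arrays at −0.29 and −0.02. Aminoacyl-tRNA synthetases, which charge tRNAs, had medians of 0.03 and 0.03 over 33 genes, of which 11 (33.3%) were higher and 2 (6.06%) lower on both arrays, against 20.7% each of all genes. Nuclear genes of oxidative phosphorylation had medians of −0.04 and 0.09 over 75 genes, 40 of them (53.3%) lower on array 3 and higher on array 4, against 26.6% of all genes. Mitochondrial ribosomal proteins had medians of −0.04 and 0.03 and cytosolic ones −0.07 and 0.01, over 76 genes each. Of 10 kept red cell genes 4 (40%) were lower and 1 (10%) higher on both arrays, and 5 had opposite signs. Their medians were 0.01 on array 3 and −0.32 on array 4. The globin genes Hba-a1 (−0.51 and −0.41), Hbb-b1 (−0.40 and −0.38) and Hbb-b2 (−0.55 and −0.28) were among the lower ones. Slc4a1, the anion exchanger of red cells, had 0.76 and 0.45. Globin copies share sequence, so their probes may read more than 1 gene.

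**Figure D3:**
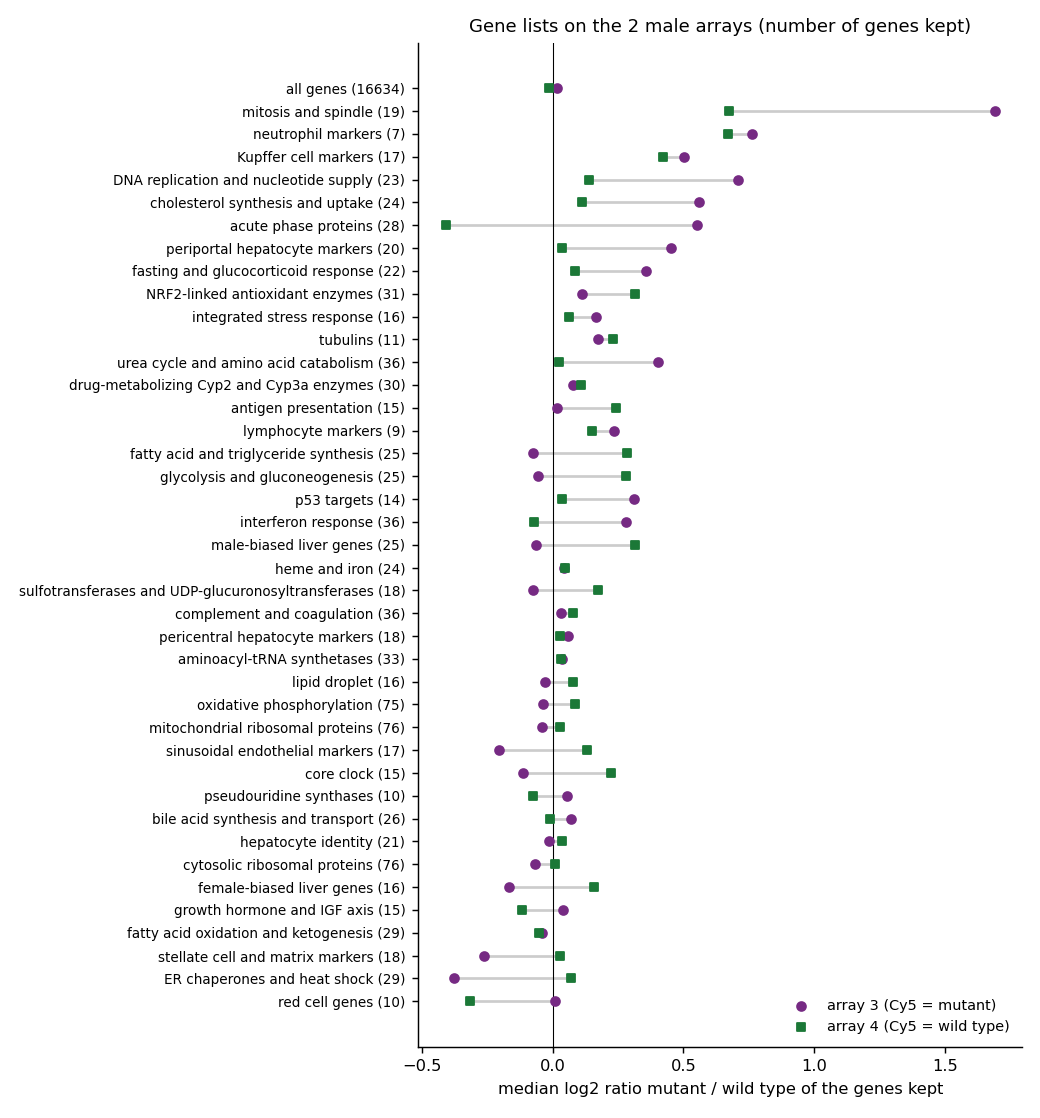
Median log2 ratio of mutant over wild type (horizontal axis) of the kept genes of each list with at least 7 of them, on array 3 (purple circles) and array 4 (green squares), with the number of kept genes in brackets. Genes for mitosis and spindle lie farthest to the right on array 3 at 1.69, and acute phase proteins lie on opposite sides of 0, at 0.55 and −0.41.

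The genes in opposite directions set mutant 3 and wild type 4 against wild type 3 and mutant 4. Of the 210, 166 were higher on array 3 and lower on array 4 and 44 the reverse. Mutant 3 and wild type 4 are also the samples labelled with Cy5, so on these arrays a difference between animals and an effect of dye cannot be told apart. On the female arrays, which have the same dye swap, 121 of the 166 (72.9%) were again higher where the mutant was Cy5 and lower where it was Cy3, against 23.4% of all genes. Of the 44 in the reverse pattern 8 (18.2%) kept it on the female arrays, against 18.9% of all genes.

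The 5 named genes of the first pattern are described next, with their female ratios. Cyp2c70, which makes muricholic acids in mice, had levels of 14.28 in mutant 3, 14.83 in wild type 4, 11.91 in wild type 3 and 10.45 in mutant 4. Mt1, a metallothionein that binds zinc and copper, had levels of 18.04 in mutant 3, 18.41 in wild type 4, 15.52 in wild type 3 and 16.06 in mutant 4. For both genes mutant 3 and wild type 4 were close and the other animals lay far below. The ratios on arrays 3 and 4 were 2.37 and −4.39 for Cyp2c70 and 2.52 and −2.35 for Mt1, and on female arrays 1 and 2 they were −1.44 and −0.40, and −2.26 and −0.20. Mt2, its neighbour gene, had 3.51 and −1.52 in males and −3.24 and 1.63 in females. Lcn2, an iron-scavenging acute phase protein, had 2.10 and −1.47 against 0.04 and 0.97, and the stress hormone gene Gdf15 2.15 and −1.38 against −1.71 and 3.25.

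Acute phase proteins, which hepatocytes secrete in inflammation, followed the same split. Of 28 kept, 16 were higher on array 3 and lower on array 4 and 1 the reverse. Of all 16634 genes 5340 (32.1%) were higher on array 3 and lower on array 4. Saa3, a serum amyloid, had levels of 11.26 in mutant 3, 11.03 in wild type 4, 9.02 in wild type 3 and 9.81 in mutant 4. The pentraxin gene Apcs had ratios of 1.13 and −1.31. Saa1, Hp and Hamp had ratios of 1.40 and −0.53, 1.09 and −1.12, and 0.42 and −1.30. The bile acid enzyme gene Cyp8b1 (2.04 and −1.51), which cleared background in 1 mutant and 1 wild type, and the asparagine synthetase gene Asns (1.10 and −1.02) showed the pattern too.

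In the reverse pattern, lower in mutant 3 than in its partner and higher in mutant 4, stood 8 of 15 kept genes of the core clock list, against 4418 of all 16634 genes (26.6%). Of the other clock genes 3, such as Nfil3 (0.48 and −0.49), took the opposite pattern, 2 were higher on both arrays and 2 lower on both. Usp2, a deubiquitinase under clock control, had levels of 11.79 in mutant 3, 12.83 in wild type 3, 11.56 in mutant 4 and 10.41 in wild type 4, and Dbp, a clock output factor, 14.07, 14.78, 14.33 and 13.45. Wild type 3 was highest and wild type 4 lowest for both, with the mutants between them. Tef, a relative of Dbp, had −0.72 and 0.47, and the clock repressor gene Bhlhe40 −0.88 and 0.52. Serpina4-ps1, a serpin pseudogene, had −2.80 and 1.38, the glucose-responsive gene Txnip −1.27 and 1.03, Coq10b, a coenzyme Q binding protein, −0.99 and 0.99, and the ketone-using synthetase gene Aacs −1.06 and 1.08. Among 29 kept ER chaperones and heat shock genes 18 (62.1%) had this pattern, such as Hsp90b1 (−0.75 and 0.53) and Hsph1 (−0.87 and 0.78). With median centring in place of loess the array 3 ratio no longer lay below the array 4 ratio for Tef and Hsp90b1. A further 9 were lower on both, among them Hspa5, the main chaperone of the endoplasmic reticulum, at −0.75 and −0.22, and Pdia3, a disulfide isomerase, at −0.37 and −0.53. Elovl6 (−1.02 and 0.91) and Fasn (−0.50 and 0.52), genes of fatty acid synthesis, had opposite signs as well. The hours at which livers were taken are not stated in the sources used here.

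**Figure D4:**
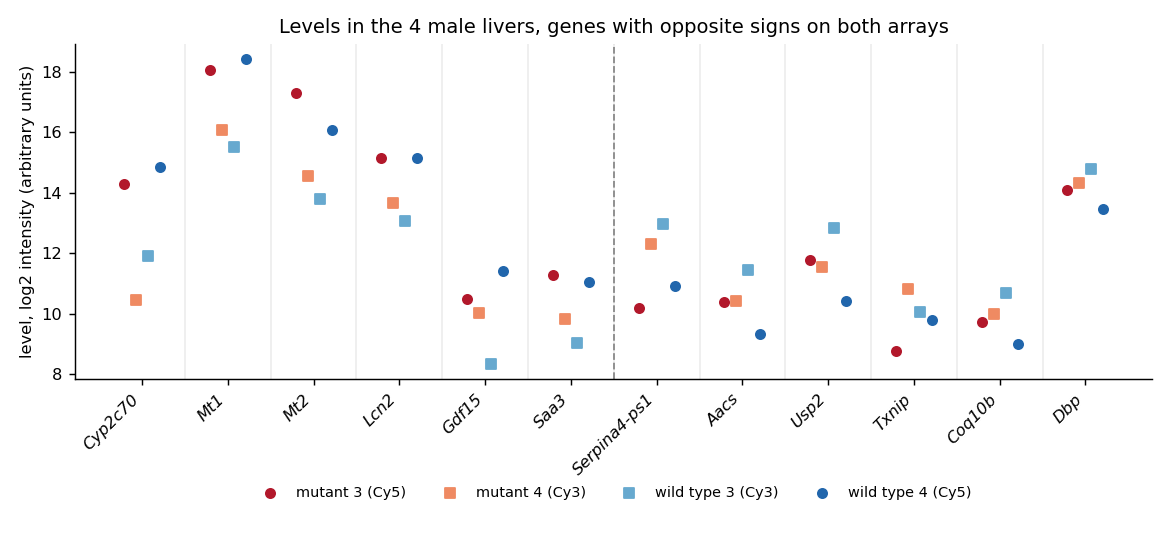
Levels of 12 genes with opposite signs on both arrays in each of the 4 male livers, as log2 brightness in arbitrary units (vertical axis), with red marks for mutants, blue marks for wild types, circles for Cy5 and squares for Cy3. Left of the dashed line both Cy5 samples, mutant 3 and wild type 4, lie above both Cy3 samples.

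Genes were then counted by their distance from Pus1 on its chromosome. Positions were taken from GRCm38.p6 for this use only. Of 266 kept genes within 20 Mb of Pus1, Pus1 left out, 134 (50.4%) had the same sign on both arrays, against 38.2% of 437 genes on the rest of that chromosome and 41.5% of 10487 genes on other chromosomes. At least 1.5-fold in the same direction were 7 of them (2.63%), against 0 of 437 and 36 of 10487 (0.343%). In opposite directions the share was 1.13%, against 1.14% and 1.33%. At an unadjusted p under 0.05 in limma were 11.7%, against 1.37% and 2.16%, and 0 passed. Counts over genes describe these 2 arrays, and genes of a region are not independent.

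The neighbours described here include Kdm2b, Acacb, Oas1f, Ift81 and Oas1a. Acacb, the acetyl-CoA carboxylase of the mitochondrial surface, had levels of 13.12 and 12.36 in mutants 3 and 4 and of 12.35 and 11.49 in wild types 3 and 4. Mutant 4 and wild type 3 nearly coincided, and the ratios were 0.77 and 0.87. Oas1a, a sensor of double-stranded RNA induced by interferon, had levels of 11.62 and 11.84 in mutants and of 10.40 and 11.24 in wild types, with ratios of 1.22 and 0.60. Its neighbour Oas1f had 0.96 and 0.64, and a further Oas1a probe 0.60 and 0.53. Ift81, a gene of cilium transport, had 1.02 and 0.63. Gpat3, an acyltransferase of triglyceride synthesis, had 2.11 and 0.51, and the lipid droplet gene Hsd17b13 0.32 and 0.82. How much of the flanking chromosome came with the mutant allele was not tested.

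**Figure D5:**
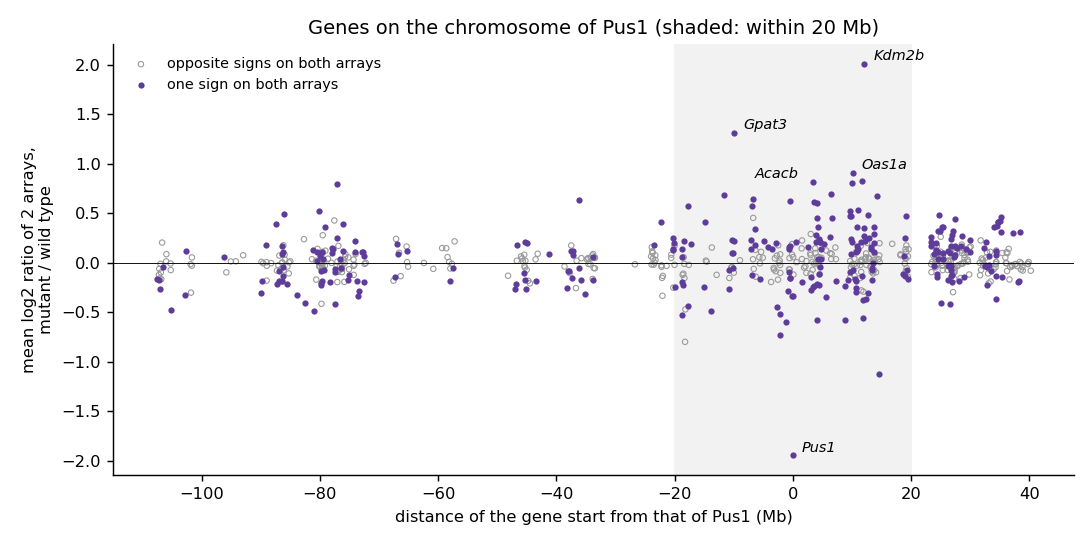
Mean log2 ratio of the 2 male arrays (vertical axis) for kept genes on the chromosome of Pus1 by the distance of their start from that of Pus1 in Mb (horizontal axis). Filled points had the same sign on both arrays; Kdm2b, Pus1 and Gpat3, among the genes of this chromosome farthest from 0, lie within the shaded 20 Mb.

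The male ratios were then set against those of the female arrays 1 and 2, which share no animal with them. No gene passed the test of males minus females in limma (0% of 16633 genes; lowest adjusted p = 0.819), and 975 (5.86%) had an unadjusted p under 0.05, of which 742 were higher in males. Of the 44 genes at least 1.5-fold higher in males 37 were higher on both female arrays, as were 26.1% of all genes, and 4 of the 7 lower ones were lower on both. Per1, a clock gene, had 0.30 and 0.47 in males and −1.74 and −1.49 in females. Egfr, a receptor of hepatocyte growth signals, had 0.40 and 0.07 against −1.83 and −1.65. Its other probes differed from this in females. A further Egfr probe gave 0.32 and 0.40 in males against −0.76 and 0.76. Another gave 0.47 and 0.22 against −0.98 and −0.27. The glucuronosyltransferase gene Ugt1a10 (0.17 and 0.00 against −1.50 and −1.49), the translation repressor gene Eif4ebp3 (0.05 and 1.05 against −1.38 and −0.59) and the lipid transporter gene Mfsd2a (−0.20 and −0.06 against −1.89 and −1.32) were the other named genes on that side.

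On the other side stood genes with higher ratios in females. Akr1c18, a steroid reductase, had −0.19 and 0.08 in males and 2.06 and 1.74 in females, and Prom1, a membrane protein of progenitor cells, 0.02 and 0.16 against 1.49 and 1.58. The interferon-induced gene Ifi44 had 0.00 and −0.15 against 1.30 and 2.00, the cytokine gene Il1b −0.65 and 1.03 against 0.71 and 2.86, and the scavenger receptor gene Msr1 −0.47 and −0.10 against 0.83 and 1.12. The 36 kept interferon response genes had medians of 0.28 and −0.07 in males and of 0.68 and 1.46 in females. Usp18, which dampens interferon signalling, had 0.30 and 0.31 in males against 1.30 and 2.54. Cdkn1a, the p53-induced inhibitor of the cell cycle, was kept through the male mutants alone. Its male ratios were 1.03 on array 3 and 0.25 on array 4, measured as 1.56-fold higher on their mean. The female ratios of Cdkn1a were −1.75 and 3.53.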

How the data were processed

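Liver RNA of 8 mice was measured on 4 two-colour arrays, of which arrays 3 and 4 hold the males. Per the submitters' processing notes, the authors used Agilent Feature Extraction 10.7.3.1. Per the file headers, its files give an intensity for each spot and channel as the median brightness of spot and local background, a processed signal, and other 0 or 1 marks per spot (well above background, saturated, outlier). The authors' deposited table of log2 values for the series has unstated centring. Its ratios correlated with those of processed signals at 0.997 to 0.998. Scale and direction matched, and centring stays unknown. Per-sample values in 68 further columns stayed unused.

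Median signals went through normexp background correction (offset 50) and loess per array (limma 3.58.1, R 4.3.3; tables were handled in data.table, release 1.17.8), with control and outlier-marked spots given no weight; levels of single channels followed Aquantile. Of 62976 spots 59305 are not controls and stand for 55681 probes, 27656 of which matched 20972 symbols through RefSeq accessions. Each gene was represented by its kept probe with the highest mean intensity. Both male log2 ratios were fitted with 1 coefficient and 1 residual degree of freedom, with empirical Bayes moderation and Benjamini-Hochberg adjustment over all genes, and males minus females with a coefficient per sex and dye. The array pairs the samples per the labels (correlation of partners' deviations 0.28).

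Named genes were Pus1, the 15 highest and 15 lowest by the smaller of both absolute ratios with the same sign, 5 per opposite pattern, up to 4 per direction in each of 42 lists, 6 near Pus1 and 5 per direction between sexes. The genes, lists and tests were chosen with earlier results of these data known. Gene lists are described by counts. Fits were tested on simulated data. Promoters were searched over 250 bases. Alternatives changed the background, normalization, filter, probe choice and arrays. Figures used matplotlib 3.10.9 under Python 3.11.15. Some items are not reported here.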

Additional observations from a re-analysis of the deposited data

Results flagged for a closer look

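The following ratios had the same sign on both male arrays and the opposite sign on both female arrays. These were picked for that pattern and the difference itself passed no test over all genes (lowest adjusted p = 0.819 in limma); for the lists it was not tested. Values are mean log2 ratios in males minus females. Those higher in males were Per1 (1.99), Egfr (1.98), Ugt1a10 (1.58), Eif4ebp3 (1.53), Acacb (1.22), Mvd (0.89), Lss (0.83) and Pmvk (0.70). Those lower in males were Msr1 (−1.26), Sec23b (−1.18), Hhex (−1.12), Hspa5 (−0.91) and Socs3 (−0.52). Some of these signs rest on values near 0. The Ugt1a10 ratio was 0.00 on array 4, and the Socs3 ratios were 0.00 and 0.04 in females. On female arrays 1 and 2 Mvd had −0.70 and −0.01, and Pmvk −0.09 and −0.04. In males Eif4ebp3 had 0.05 on array 3, Egfr 0.07 on array 4 and Msr1 −0.10 on array 4. Further probes of Pmvk (−0.38 and 0.67), Acacb (0.01 and −0.49) and Egfr (−0.76 and 0.76) had opposite signs on the female arrays. Another Egfr probe gave −0.98 and −0.27.

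The median over 24 genes of cholesterol synthesis and uptake was 0.64 higher in males, from 0.56 and 0.11 on the male arrays and −0.33 and −0.27 on the female arrays. Its members Lss, Mvd and Pmvk are among the genes above. The median over 30 drug-metabolizing Cyp2 and Cyp3a enzymes was 0.21 higher in males.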

How the results depend on the processing

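The 66 named genes with the same sign on both arrays, Pus1 apart, kept their direction under every alternative that gave them a value (848 of 848 values). Part of this count was fixed by the choice of the genes. Settings without array 3 or 4 return the ratio of the other male array, which has the same sign by that choice. The fits to all 4 arrays and to single channels return the same male mean. These settings could thus turn no direction. For 2 genes with opposite signs the difference of array 3 minus array 4 turned with median centring, to 0.27 for Tef and 0.20 for Hsp90b1; the cause was not tested. The number passing an adjusted p of 0.05 was 1 with local background subtracted, 6 with no filter on dim probes and 0 under the other alternatives, those without array 3 or 4 included. Pus1 passed in those 2 settings (log2 ratios −3.28 and −1.95), and its log2 ratio ran from −5.00 with the series table to −1.82 without array 4. Without array 3 it was −2.07. With no replicate block, single channels gave Pus1 −1.95 and called 0 genes, with 142 at an unadjusted p under 0.05 against 358 with the pairing by array.

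The count of 51 genes at least 1.5-fold in the same direction was 78 with an offset of 16, 105 with local background subtracted, 191 with processed signals, 209 with the series table and 32 with median centring; a smaller offset shrinks dim ratios less. On array 4 alone it was 610 and on array 3 alone 898. Opposite directions gave 3648 genes with median centring, against 210. The median ratio over the mitosis and spindle genes ran from 0.67 to 2.19, over Kupffer cell markers from 0.38 to 0.50 and over neutrophil markers from 0.28 to 1.73. For males minus females 3 genes passed without array 1 and 0 without array 2, 3 or 4. Without replicate 3 or 4, array 1 and 2 lend their spread to the lone male array. With 1 residual degree of freedom the spread of a gene rests mostly on that of all genes.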

Other observations

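The brighter of 2 Pigr probes shared its profile over the 4 arrays with genes of other kinds, which were chosen after their values were seen. It gave −1.03 and −2.48 on female arrays 1 and 2 and −0.48 and −0.47 on male arrays 3 and 4, while the other Pigr probe gave −0.55, −1.51, −0.46 and −0.42. Dcc, a netrin receptor of axons, gave −1.03, −2.46, −0.46 and −0.38, and Rhox8, a homeobox gene of the reproductive tract, −1.03, −2.46, −0.49 and −0.39. In all 31 genes or unnamed transcripts, Pigr included, lay within 0.2 of that Pigr probe on each of the 4 arrays. Levels of Dcc were between 15.94 and 16.67 in the 4 males, those of Pigr between 15.82 and 16.54.

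The 21 kept hepatocyte identity genes had medians of −0.01 and 0.04. On both arrays 3 were higher and 2 lower, against 20.7% each of all genes. Those named here were chosen after their values were seen. Foxa1, a pioneer factor of liver genes, had ratios of −1.34 and 0.09, and Cebpa, a factor of hepatocyte differentiation, −0.64 and 0.53. Ttr, the carrier of thyroid hormone and retinol, had 0.61 and 0.50, the member of this list with the highest smaller ratio among those higher on both arrays. The class II antigen presentation genes H2-Eb1 (−0.59 and 0.48) and Cd74 (−0.47 and 0.51) took opposite signs, while the class I gene H2-Q7 had 0.49 and 0.41.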
